A study of Homo sapiens with 3 samples.

Results

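The genes described here are the glucose transporter SLC2A1 and 9 enzymes of glycolysis and lactate formation, HK2, GPI, PFKP, ALDOA, GAPDH, PGK1, ENO1, PKM and LDHA. They were chosen by gene symbol, and these 10 genes of the 36601 counted were followed in single cells of OVCAR3, an established line of human HGSOC (high-grade serous ovarian carcinoma). Cultures received vehicle (DMSO), RAC1i at 50 μM, or RAC1i at 50 μM together with EZH2i at 5 μM (Combo), each for 48 hours. RAC1i stands for NSC23766, an inhibitor of the activation of the small GTPase RAC1, EZH2i for GSK126, an inhibitor of the histone methyltransferase EZH2, and both were dissolved in DMSO. The study asked how these inhibitors change subpopulations of HGSOC cells. Each condition was 1 library from 1 cell line, which leaves no replicates and allows no test of a condition. EZH2i by itself is not covered here.

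Glycolysis converts glucose to pyruvate in the cytosol. Glucose enters through facilitative transporters such as SLC2A1, is phosphorylated by a hexokinase, and is split and oxidised in steps that yield ATP and NADH, after which lactate dehydrogenase can turn pyruvate into lactate and restore NAD+. Many tumours run this route at a high rate even with oxygen present, and most of its genes are known targets of the hypoxia factor HIF1 and of MYC.

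Levels are given as CPM, the unique molecular identifiers (UMIs, tags of captured mRNA molecules) of a gene per 1000000 UMIs of a library's kept cells. The DMSO library kept 7531 cells, RAC1i 10215 and Combo 8239, with 199063947, 234969742 and 212792113 UMIs and a median of 26750, 20989 and 24953 UMIs per cell. Brackets hold 95% intervals, which cover counting error only and not the spread between cultures. The median mitochondrial share of a cell's UMIs was 5.60% in the DMSO library against 1.66% in RAC1i and 1.58% in Combo. The libraries shared between 15 and 23 cell barcodes by pair, at most 0.305% of a library's cells. All 10 epithelial and ovarian cancer markers looked up reached 10 CPM in at least 1 library, although 7 of them were over 1.5-fold lower than DMSO in each of RAC1i and Combo, as were 36.9% and 35.4% of all genes. No leukocyte, fibroblast or endothelial marker reached 10 CPM, their sums being between 1.00 and 1.53 CPM for leukocytes and between 6.95 and 7.66 CPM for fibroblasts and endothelium, and the leukocyte marker PTPRC had 2, 5 and 0 UMIs, where 0 UMIs allow up to 0.0141 CPM.

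For 5 of the genes the UMIs were numerous enough to show how they varied together from cell to cell, and their promoters are shown for that reason. Each sequence is a RefSeq window of GRCh38.p14 from 250 bases before to 50 bases after a start site of the gene. It is read 5′ to 3′ on the gene's strand. Such a start site need not be the outer end of the gene's GENCODE position given further on, and for PGK1 it lies well inside that position. Capitals mark ACGTG and GCGTG on either strand (CACGT and CACGC when read on the other strand), the letters at the core of hypoxia response elements.
GAPDH (chr12:6535014-6535313, plus strand): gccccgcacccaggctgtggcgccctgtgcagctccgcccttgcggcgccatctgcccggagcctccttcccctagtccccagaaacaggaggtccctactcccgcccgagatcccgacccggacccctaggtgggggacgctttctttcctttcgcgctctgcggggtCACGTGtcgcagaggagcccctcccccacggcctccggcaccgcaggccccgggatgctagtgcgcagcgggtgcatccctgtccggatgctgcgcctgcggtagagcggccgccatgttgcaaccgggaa
PGK1 (chrX:78103998-78104297, plus strand): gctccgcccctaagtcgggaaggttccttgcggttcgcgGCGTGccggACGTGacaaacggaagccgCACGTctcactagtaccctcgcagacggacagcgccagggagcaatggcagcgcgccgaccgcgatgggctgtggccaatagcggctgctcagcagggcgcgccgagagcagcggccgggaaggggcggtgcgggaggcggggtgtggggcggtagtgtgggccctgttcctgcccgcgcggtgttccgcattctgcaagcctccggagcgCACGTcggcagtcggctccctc
ENO1 (chr1:8878637-8878936, minus strand): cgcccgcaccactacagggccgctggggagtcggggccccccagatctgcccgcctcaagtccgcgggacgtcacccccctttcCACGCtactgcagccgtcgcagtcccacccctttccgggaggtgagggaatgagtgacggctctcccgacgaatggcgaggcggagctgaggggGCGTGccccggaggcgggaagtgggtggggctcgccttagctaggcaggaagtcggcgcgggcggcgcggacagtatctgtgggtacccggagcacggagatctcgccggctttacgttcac
PKM (chr15:72231141-72231440, minus strand): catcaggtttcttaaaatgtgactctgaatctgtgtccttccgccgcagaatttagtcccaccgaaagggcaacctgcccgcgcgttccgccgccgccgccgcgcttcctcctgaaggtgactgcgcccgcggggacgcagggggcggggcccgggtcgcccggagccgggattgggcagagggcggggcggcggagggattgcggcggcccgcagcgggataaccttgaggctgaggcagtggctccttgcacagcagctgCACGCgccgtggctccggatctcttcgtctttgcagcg
LDHA (chr11:18394313-18394612, plus strand): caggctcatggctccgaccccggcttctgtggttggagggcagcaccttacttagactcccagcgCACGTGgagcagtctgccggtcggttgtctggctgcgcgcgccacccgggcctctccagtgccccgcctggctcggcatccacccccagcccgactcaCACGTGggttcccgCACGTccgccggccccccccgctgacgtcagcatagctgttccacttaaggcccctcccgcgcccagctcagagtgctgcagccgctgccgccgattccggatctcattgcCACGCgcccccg

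The letters ACGTG stood in at least 1 promoter window of 7 of the 10 genes (HK2, GPI, PFKP, ALDOA, GAPDH, PGK1 and LDHA), against 24.9% of 27305 genes in the table, and in 10 of their 17 windows, against 21.4% of 35116. PGK1 held 3 matches to ACGTG and 1 to GCGTG in its window. LDHA held CACGTG, the E-box, at 2 places and GAPDH at 1, which count toward ACGTG on both strands because CACGTG reads the same on each. CACGTG was in 7.26% of all windows. The windows of ENO1 and PKM held no ACGTG but 2 and 1 matches to GCGTG, a string found in 36.5% of all windows. LDHA has another window, which held GCGTG once and no ACGTG. Of the other strings searched, CCAAT was in a window of 5 of the 10 genes and of 39.7% of all genes, and the GC box GGGCGG in a window of 9 of the 10 (all but GPI) and of 48.3% of all genes. These matches describe letters and do not show binding.

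After RAC1i, alone or in the combination, the 10 genes did not move together. PFKP was at 0.243 and 0.241 of its DMSO level, SLC2A1, GPI and PGK1 were lower by a smaller amount, GAPDH and ALDOA were higher, and the ratios of ENO1 and LDHA were closest to 1 apart from HK2 in RAC1i. Only PFKP passed 1.5-fold in RAC1i over DMSO, and only PFKP and SLC2A1 did so in Combo over DMSO, all of them lower and none higher. Among all genes that reached 10 CPM in either library, 36.9% were past 1.5-fold lower and 22.7% past 1.5-fold higher in RAC1i (8778 genes), and 35.4% and 21.3% in Combo (8745 genes). HK2 did not reach 10 CPM, so the counts on the same filter are 1 and 2 of 9. PFKP reached 10 CPM in DMSO alone and could not have been counted as higher, so nothing is read from these counts against the shares. The median log2 ratio of the 9 genes was -0.26 in RAC1i over DMSO and -0.26 in Combo over DMSO, where the median over all genes was -0.20 and -0.18. With HK2 included, the median of the 10 genes was -0.18 in RAC1i and -0.33 in Combo. Both comparisons use the same DMSO library, so their values are given side by side and are not independent of each other.

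**Figure D1:**
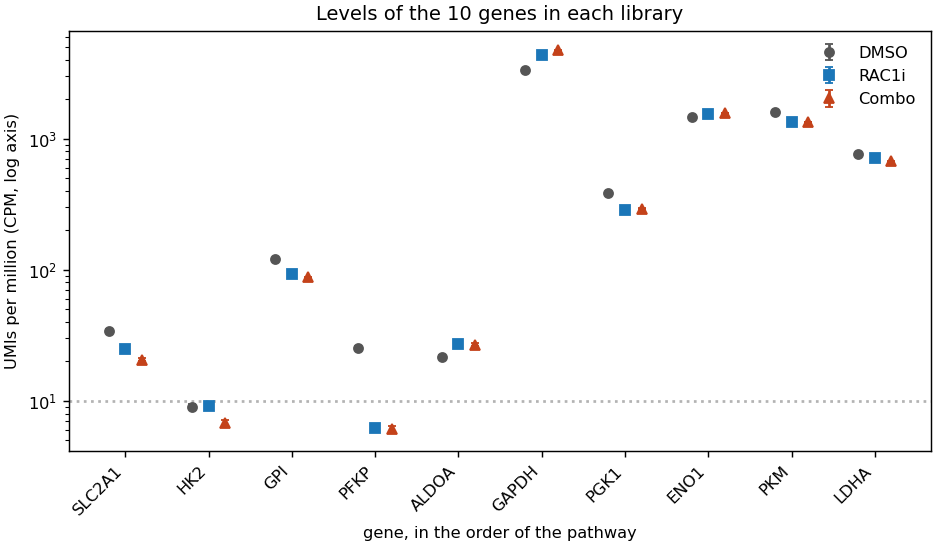
Level (CPM, log axis) of each gene in the DMSO (grey circles), RAC1i (blue squares) and Combo (orange triangles) libraries, 1 library per condition, with 95% counting intervals that are mostly smaller than the symbols. GAPDH had the most UMIs in each library, and PFKP went from 25.4 CPM in DMSO to below the dotted line at 10 CPM in RAC1i and Combo.

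**Figure D2:**
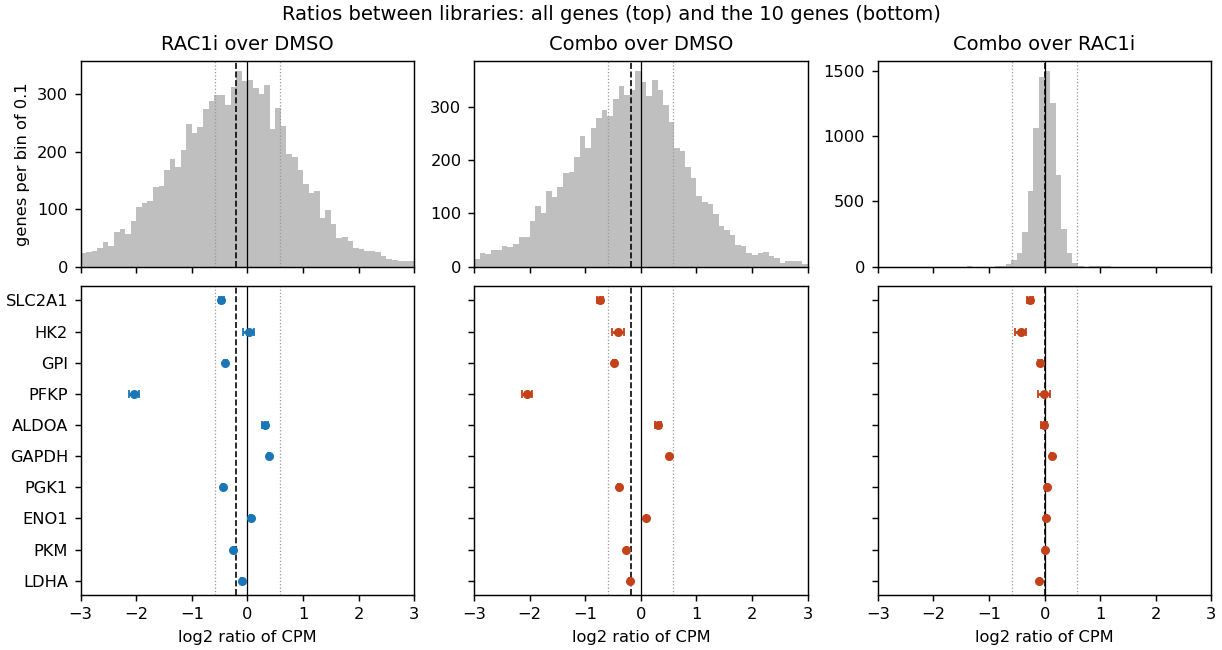
Log2 ratios of CPM between libraries, as a histogram of all genes that reached 10 CPM in either library (top, bins of 0.1, values past 3 in either direction not drawn) and for each of the 10 genes with its 95% counting interval (bottom). The dashed line is the median of all genes and the dotted lines are 1.5-fold; PFKP lies at -2.04 and -2.05 against DMSO, while the other 9 genes lie between -0.73 and 0.51.

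SLC2A1 (GLUT1; ENSG00000117394, chromosome 1, 42925353 to 42958893, minus strand), the main glucose transporter of most cultured cells, had 34.4 CPM in DMSO, 24.8 in RAC1i and 20.7 in Combo. Its ratio to DMSO was 0.722 (0.698 to 0.748) in RAC1i and 0.601 (0.579 to 0.624) in Combo. The order was DMSO, RAC1i, Combo, with no overlap of the counting intervals. In Combo the log2 ratio of -0.73 was past 1.5-fold, but -0.57 in thinned cells and -0.45 as a mean over cells were not. In cells thinned to 5000 UMIs, 14.6% of DMSO cells had an SLC2A1 UMI against 11.7% in RAC1i and 10.2% in Combo, where without thinning the shares were 49.8%, 37.5% and 35.5%. OVCAR3 holds no cell type known to lack these genes, so a background share from free RNA could not be given. SLC2A1 was nearly the only one of the closely related pair SLC2A1 and SLC2A3 to be captured, with 99.9%, 99.7% and 99.5% of their UMIs.

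HK2 (ENSG00000159399, chromosome 2, 74834127 to 74893359, plus strand), the inducible hexokinase that traps glucose in the cell, was below 10 CPM in every library. It had 9.01 CPM in DMSO, 9.13 in RAC1i and 6.79 in Combo. DMSO and RAC1i did not differ beyond counting error, with a ratio of 1.01 (0.951 to 1.08), and Combo was lower, with a ratio of 0.753 (0.702 to 0.807). These values moved with the setting, and the log2 ratio of RAC1i was 0.36 in thinned cells and 0.42 as a mean over cells, and that of Combo was -0.029 and 0.16. HK1, the hexokinase present in most tissues, was the more abundant, with 29.6, 23.5 and 25.2 CPM. HK2 thus made up 23.3% (22.4 to 24.3) of the UMIs of both in DMSO, 28.0% (26.9 to 29.0) in RAC1i and 21.2% (20.2 to 22.2) in Combo. These shares rest on the HK2 values that moved with the setting, so no order of the libraries is read from them.

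GPI (ENSG00000105220, chromosome 19, 34359480 to 34402413, plus strand), which converts glucose phosphate to fructose phosphate, had 122 CPM in DMSO, 92.5 in RAC1i and 87.4 in Combo. Its ratios to DMSO were 0.760 (0.746 to 0.774) and 0.718 (0.705 to 0.732). Both treated libraries were lower than DMSO and lay close to each other.

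PFKP (ENSG00000067057, chromosome 10, 3066333 to 3137718, plus strand) is the platelet-type subunit of phosphofructokinase, the enzyme of the committed step of glycolysis. It had 25.4 CPM in DMSO, 6.18 in RAC1i and 6.13 in Combo, with ratios of 0.243 (0.229 to 0.258) and 0.241 (0.227 to 0.256). RAC1i and Combo could not be told apart, with a ratio of Combo to RAC1i of 0.992 (0.920 to 1.07). Of the genes compared with DMSO, 6.06% had a lower ratio than PFKP in RAC1i and 5.01% in Combo. PFKP reached 10 CPM in DMSO alone, which favours a low place among these genes, so nothing is read from that place. The share of cells with a PFKP UMI went from 42.0% to 12.1% and 13.4%, and after thinning from 11.5% to 2.90% and 3.10%.

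The other phosphofructokinase subunits were lower as well. PFKL, the liver type, had 47.6 CPM in DMSO, 15.9 in RAC1i and 17.8 in Combo, and PFKM, the muscle type, had 19.5, 9.17 and 10.7 CPM. Summed over the subunits, PFKP made up 27.5% (26.8 to 28.1) of phosphofructokinase UMIs in DMSO, 19.8% (18.9 to 20.7) in RAC1i and 17.7% (16.8 to 18.6) in Combo. All 3 subunits were therefore lower in both treated libraries, PFKP by more than PFKL and PFKM.

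ALDOA (ENSG00000149925, chromosome 16, 30064164 to 30070457, plus strand), the aldolase that splits the phosphorylated sugar, had 21.6 CPM in DMSO, 26.9 in RAC1i and 26.8 in Combo. Its ratios to DMSO were 1.24 (1.20 to 1.29) and 1.24 (1.19 to 1.29). The value is uncertain, because the same-strand gene AC093512.2 shares 42.8% of the exonic bases of ALDOA and 370 of its last 500 in GENCODE 44, and reads that match both genes are not counted for either by default. AC093512.2 itself had 15, 41 and 45 UMIs. ALDOC, another aldolase, had 9.42, 3.30 and 3.28 CPM, so the share of ALDOA in the UMIs of both was 69.6% in DMSO and 89.1% in each treated library.

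GAPDH (ENSG00000111640, chromosome 12, 6534512 to 6538374, plus strand), which oxidises the triose phosphate and forms NADH, had 3318 CPM in DMSO, 4314 in RAC1i and 4712.5 in Combo. Its ratios to DMSO were 1.30 (1.296 to 1.304) and 1.42 (1.416 to 1.425), and Combo was above RAC1i by a ratio of 1.09 (1.09 to 1.10). By UMIs GAPDH ranked 32 among all genes of the DMSO library, 22 in RAC1i and 16 in Combo. With TMM factors and with DESeq2 size factors the log2 ratio of Combo to DMSO was 0.60 and 0.62 in place of 0.51, past 1.5-fold. The ratio was not the same in cells of each mitochondrial share. Among cells under 1% it was 0.866 in RAC1i and 0.917 in Combo, at 1% to 2% it was 0.967 and 1.07, and at 2% to 5% it was 1.08 and 1.20. At 5% to 10%, the band with 44.9% of the DMSO cells, it was 1.22 and 1.20, and over 10% it was 1.02 and 0.871. The part of the mitochondrial share in the GAPDH values was not tested.

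PGK1 (ENSG00000102144, chromosome X, 77910739 to 78129295, plus strand), the kinase of the first ATP-yielding step, had 385 CPM in DMSO, 283 in RAC1i and 293 in Combo. Its ratios to DMSO were 0.736 (0.728 to 0.744) and 0.760 (0.752 to 0.768). The gene that follows GAPDH in the pathway was thus lower in both treated libraries, where GAPDH was higher.

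ENO1 (ENSG00000074800, chromosome 1, 8861000 to 8879190, minus strand), the enolase that forms phosphoenolpyruvate, had 1475 CPM in DMSO, 1536 in RAC1i and 1572 in Combo. Ratios of 1.04 (1.036 to 1.047) and 1.07 (1.06 to 1.07) were above 1, but that of RAC1i fell below 1 when mitochondrial genes were left out of the total, and both did when CPM was averaged over cells. ENO2, the neuronal enolase, had at most 5.46 CPM, so ENO1 held 99.6% of the UMIs of both genes in DMSO and 99.9% in each treated library.

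PKM (ENSG00000067225, chromosome 15, 72199029 to 72231819, minus strand), the pyruvate kinase, had 1612 CPM in DMSO, 1344 in RAC1i and 1345 in Combo. Its ratios were 0.834 (0.830 to 0.838) and 0.835 (0.830 to 0.839), and RAC1i and Combo did not differ beyond counting error, with a ratio of 1.00 (0.996 to 1.01). Its spliced forms cannot be told apart in counts per gene.

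LDHA (ENSG00000134333, chromosome 11, 18394560 to 18408425, plus strand), the lactate dehydrogenase subunit that favours lactate formation, had 770 CPM in DMSO, 717 in RAC1i and 672 in Combo. Its ratios were 0.931 (0.925 to 0.938) and 0.873 (0.867 to 0.879), and the log2 ratio of -0.10 in RAC1i and -0.20 in Combo moved with the setting, to 0.01 and -0.079 with DESeq2 size factors, -0.23 and -0.36 in thinned cells, and -0.36 and -0.50 as a mean over cells. LDHB, the subunit that is more abundant in oxidative tissues, had 1608, 1067 and 1104 CPM, a ratio of 0.663 and 0.687 to DMSO. The share of LDHA in the UMIs of both subunits was therefore higher in the treated libraries, at 32.4% (32.2 to 32.5) in DMSO, 40.2% (40.04 to 40.34) in RAC1i and 37.8% (37.7 to 38.0) in Combo.

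Summed over the 10 genes, UMIs made up 0.777% of the library in DMSO, 0.835% in RAC1i and 0.874% in Combo, a ratio to DMSO of 1.07 (1.07 to 1.08) and 1.12 (1.12 to 1.13). This direction did not hold in cells of like mitochondrial share, where the sum was below DMSO in each of 5 bands in RAC1i and in 4 of 5 in Combo. By depth, the sum was above DMSO in both treated libraries in the 4 bands of 10000 UMIs or more and below it in cells under 10000. GAPDH alone was 42.7%, 51.6% and 53.9% of that sum. Of the other genes, 6 of 9 had a lower CPM than DMSO in RAC1i and 7 of 9 in Combo. The median log2 ratio of all genes was itself below 0, at -0.20 and -0.18, so these counts say nothing particular of the 9. A 3′ library captures a tag per molecule whatever its length, so CPM was not divided by length, and the order of the genes is one of UMIs assigned to a gene. Reads that ALDOA shares with AC093512.2 are not assigned, so the place of ALDOA is uncertain. That order was GAPDH, PKM, ENO1, LDHA, PGK1 and GPI in DMSO, and GAPDH, ENO1, PKM, LDHA, PGK1 and GPI in RAC1i and in Combo. SLC2A1, PFKP, ALDOA and HK2 followed in DMSO, whereas PFKP was the lowest of the 10 in both treated libraries.

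As whole libraries, Combo and RAC1i lay close to each other. In Combo over RAC1i none of the 10 genes passed 1.5-fold in either direction, and of 7443 genes 0.484% were past it lower and 0.175% higher, that is 36 and 13 genes, or 31 and 18 genes with TMM factors. HK2 and PFKP did not reach 10 CPM in either of these libraries. The median log2 ratio was -0.01 for the 10 genes and 0.01 for all genes. HK2 was the lowest of the 10, with a ratio of 0.743 (0.695 to 0.795), and 1.85% of the 7443 genes, which HK2 is not among, had a lower ratio. SLC2A1 followed with 0.832 (0.7999 to 0.8654), and 8.26% of genes were lower. LDHA had a ratio of 0.937 and GPI of 0.945, while PFKP, ALDOA, PKM, ENO1 and PGK1 lay between 0.992 and 1.03. By depth, HK2 was within counting error under 10000 UMIs (0.936, 0.756 to 1.16) and at 10000 to 20000 (0.882, 0.747 to 1.04). In deeper bands it lay between 0.668 and 0.826. By mitochondrial share, LDHA was past 1.5-fold lower at 5% to 10% (0.587, 0.554 to 0.622) and over 10% (0.532), as was PGK1 (0.633 and 0.620). Under 5%, LDHA lay between 0.898 and 0.971 and PGK1 between 1.01 and 1.06.

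These ratios depended on the depth of the cells. Cells under 10000 UMIs were 22.0% of the DMSO cells, 21.9% of RAC1i and 21.9% of Combo, but they were not alike: their median mitochondrial share was 0.903% in DMSO, where deeper bands had 5.41% to 7.45%, and 3.95% in RAC1i and 4.85% in Combo, where deeper bands had 1.18% to 1.75%. LDHA had 954 CPM in the shallow DMSO cells against 390 in RAC1i and 287 in Combo, ratios of 0.409 (0.395 to 0.424) and 0.301 (0.288 to 0.314). In cells with 40000 UMIs or more the LDHA ratios were 1.046 (1.033 to 1.059) and 0.996 (0.984 to 1.01). By depth, the LDHA of RAC1i and Combo was thus furthest below DMSO in the shallow cells. In the deepest it was not below DMSO by more than counting error. In every band of mitochondrial share LDHA was below DMSO, with ratios between 0.442 and 0.936 in RAC1i and between 0.235 and 0.840 in Combo.

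PGK1 had the same order by depth. Its ratios were 0.317 (0.2999 to 0.3344) and 0.241 (0.225 to 0.257) in cells under 10000 UMIs. In the deepest they were 0.7997 and 0.8635. GAPDH was lower than DMSO in the shallow cells, by a ratio of 0.829 in both treated libraries, and higher in each deeper band, by 1.22 to 1.35 in RAC1i and 1.39 to 1.52 in Combo. ENO1 likewise had ratios of 0.715 and 0.685 in the shallow cells and between 1.03 and 1.11 in the deeper bands. By mitochondrial share ENO1 was above DMSO beyond counting error only at 2% to 5% in Combo (1.04, 1.03 to 1.05). It was within counting error at 2% to 5% in RAC1i (1.007, 0.998 to 1.016) and at 1% to 2% in Combo (0.992, 0.972 to 1.013). Elsewhere it lay between 0.774 and 0.957 in RAC1i and between 0.578 and 0.843 in Combo. By depth SLC2A1 went the other way. The shallow DMSO cells had only 12.2 CPM (9.99 to 14.7) of it, against 31.9 in RAC1i and 27.2 in Combo. The ratios were 2.62 (2.12 to 3.27) and 2.24 (1.78 to 2.82). In every deeper band SLC2A1 was lower than DMSO, with ratios between 0.542 and 0.703. In bands of mitochondrial share it was at 4.50 and 4.10 times DMSO in cells under 1%, and in RAC1i the lower level was within counting error at 1% to 2% (0.933, 0.788 to 1.11) and at 5% to 10% (0.998, 0.874 to 1.13). In Combo it was between 0.514 and 0.757 in the 4 bands from 1% up. HK2 ratios went from 2.30 and 2.16 in the shallow cells to 0.752 and 0.503 in the deepest.

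PFKP stood apart, as its ratio was between 0.212 and 0.270 in every depth band of RAC1i and between 0.186 and 0.259 in every band of Combo. It was also between 0.167 and 0.363 in each of 5 bands of mitochondrial share. Both of these bounds are from cells over 10%, where PFKP had only 6 UMIs in RAC1i (0.061 to 0.366) and 13 in Combo (0.192 to 0.627). In the bands up to 10% its ratio was between 0.185 and 0.324. PFKP was thus below DMSO in every band of depth and of mitochondrial share. PGK1 was likewise below DMSO in every band of both kinds, with ratios between 0.193 and 0.864. GPI and PKM were below DMSO in each depth band, with ratios between 0.565 and 0.906, and ALDOA was above it in each, between 1.13 and 1.501. In bands of mitochondrial share PKM was below DMSO in each, but GPI in RAC1i was at 0.999 in cells with 2% to 5% and 1.04 in those with 5% to 10%. ALDOA was within counting error of DMSO in cells under 1%, at 0.882 (0.780 to 1.0002) and 0.899 (0.795 to 1.02). The same held in those with 1% to 2%, at 0.991 and 0.974.

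Of the DMSO cells, 1170 (15.5%) had under 1% mitochondrial UMIs, and in these the 10 genes summed to 11038 CPM, against 8306 in cells with 2% to 5% and 6497 in cells over 10%. GAPDH had 5414 CPM in the cells under 1% and SLC2A1 5.22, the latter against 24.5 to 45.2 in the other bands. The sum of the 10 genes was lower at higher mitochondrial share in RAC1i and Combo too, from 8872 to 5032 CPM and from 9135 to 3946 CPM between the bands under 1% and over 10%. What sets these cells apart was not tested.

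**Figure D3:**
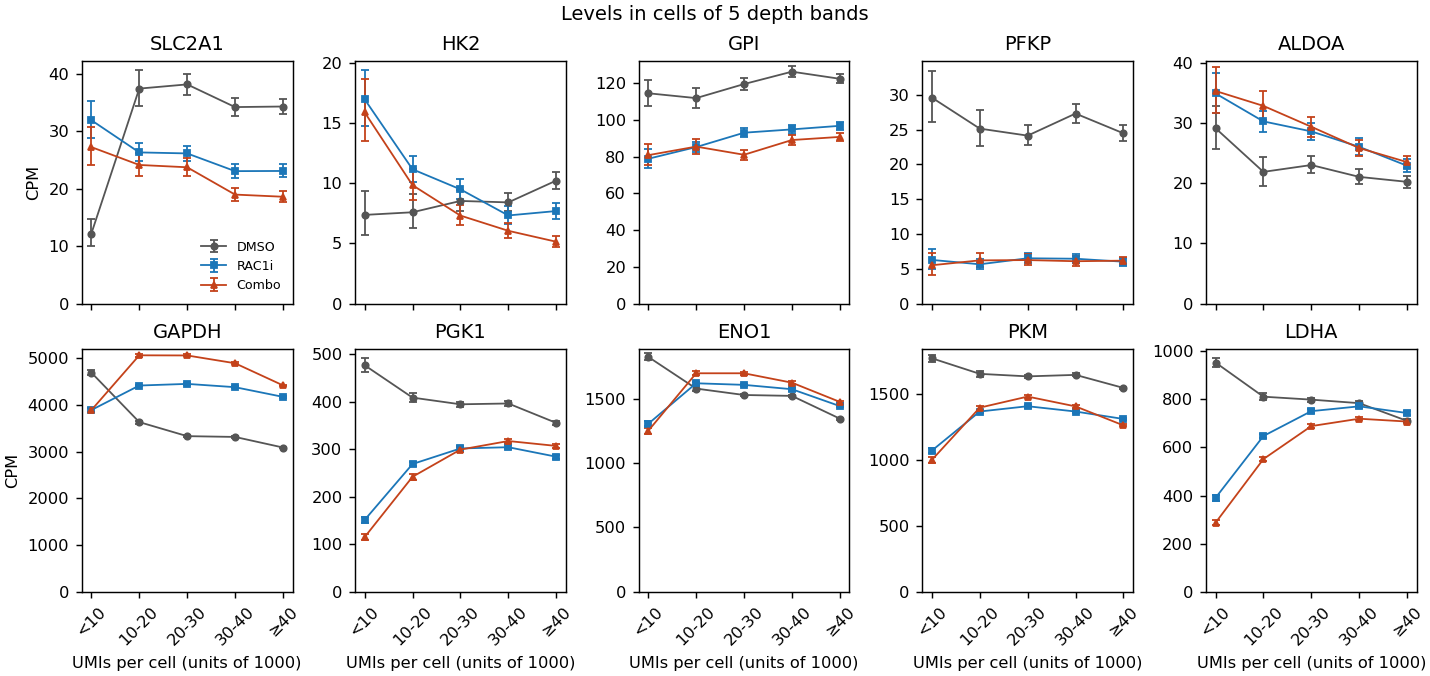
CPM of each gene in cells grouped by UMIs per cell (axis in units of 1000) in the DMSO, RAC1i and Combo libraries, with 95% counting intervals and axes from 0. The DMSO line for PFKP stays above those of RAC1i and Combo at every depth, those for GAPDH, ENO1, SLC2A1 and HK2 cross, and for LDHA in the deepest cells Combo meets DMSO and RAC1i lies above it.

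To ask whether the genes varied together from cell to cell, cells with at least 5000 UMIs were thinned at random to 5000 each (6725 DMSO, 9200 RAC1i and 7354 Combo cells), and Pearson correlations of log2(UMIs + 1) were taken over the cells of each library. Most of the 45 pairs showed next to nothing: the median stood at 0.018 in DMSO, 0.020 in RAC1i and 0.0045 in Combo, and the highest at 0.297, 0.276 and 0.347. SLC2A1, HK2, PFKP and ALDOA averaged at most 0.162 UMIs per thinned cell and GPI at most 0.604, and the 35 pairs that hold any of them lay between -0.085 (SLC2A1 with GAPDH in DMSO) and 0.076, weak values in sparse counts from which no finding is drawn. GAPDH, PGK1, ENO1, PKM and LDHA varied by over 5% more than counting alone gives in each library. The median over their 10 pairs was 0.221 for DMSO, 0.180 for RAC1i and 0.225 for Combo.

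Counting noise lowers such values, so the variance that Poisson counting gives was subtracted from each gene's variance. With this noise correction the 10 pairs had medians of 0.556 (DMSO), 0.347 (RAC1i) and 0.406 (Combo), and in cells thinned to 10000 UMIs they were 0.484, 0.342 and 0.362. These cells share a library and a thinned depth, and they are not replicates, so the values describe these libraries only. Before thinning their depths differed. Over the thinned cells, GAPDH correlated with log2 of a cell's own depth at -0.277 in DMSO, 0.029 in RAC1i and 0.080 in Combo. PGK1 had -0.109, 0.179 and 0.262, and LDHA -0.133, 0.271 and 0.322. ENO1 and PKM were likewise negative in DMSO and positive in both treated libraries. The part of depth in the correlations between genes was not tested. The noise-corrected coefficient of variation of the 5 genes lay between 0.275 and 0.482, and was highest for LDHA in every library.

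The pairs differed in how they stood in DMSO and in the treated libraries. GAPDH and PGK1, the neighbours in the pathway, reached 0.759 by noise-corrected correlation in DMSO, against 0.129 in RAC1i and 0.142 in Combo. PGK1 and LDHA had 0.559, 0.685 and 0.695, and ENO1 and PKM had 0.547, 0.589 and 0.653. In DMSO the pair of GAPDH and PGK1 was thus the highest, while in RAC1i and Combo it was the lowest of the 10 and PGK1 with LDHA the highest. The same held at 10000 UMIs for the treated libraries, with 0.152 and 0.092 for GAPDH and PGK1 against 0.647 and 0.607 for PGK1 and LDHA, whereas in DMSO GAPDH and PGK1 had 0.596 and PGK1 and ENO1 were highest with 0.628. Among cells with 1% to 5% mitochondrial UMIs, GAPDH and PGK1 had 0.702 in DMSO (1785 cells), 0.086 in RAC1i (6292 cells) and 0.032 in Combo (4904 cells). Over all thinned cells GAPDH went against the mitochondrial share, with correlations of -0.525 (DMSO), -0.190 (RAC1i) and -0.289 (Combo). PGK1, ENO1, PKM and LDHA did so too, between -0.154 and -0.205 in DMSO. They lay between -0.107 and -0.155 in RAC1i and between -0.177 and -0.260 in Combo.

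**Figure D4:**
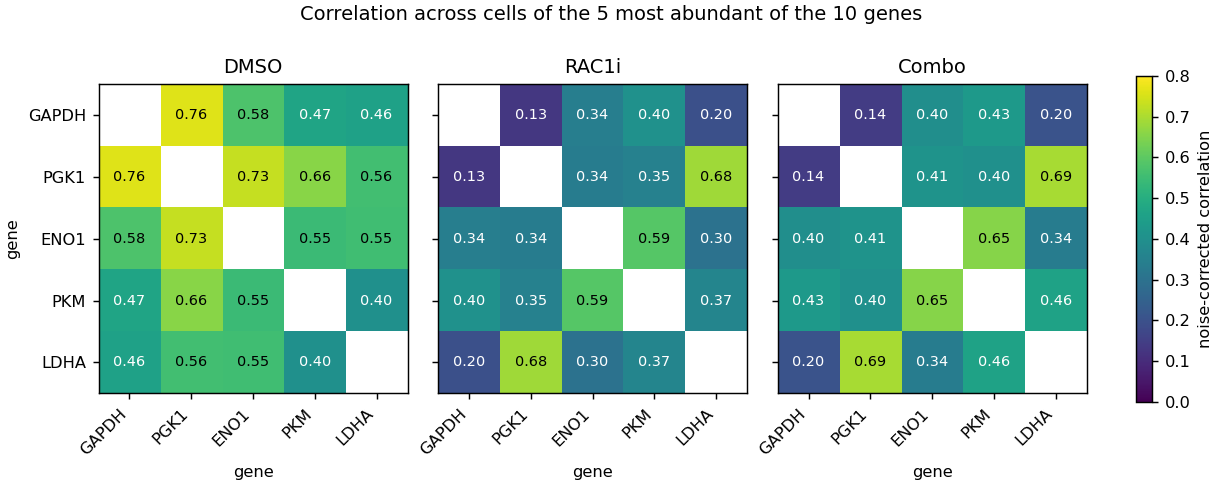
Noise-corrected correlation across cells (colour scale 0 to 0.8) between GAPDH, PGK1, ENO1, PKM and LDHA in each library, in cells thinned to 5000 UMIs. GAPDH with PGK1 is at 0.759 in DMSO and at 0.129 and 0.142 in RAC1i and Combo, while PGK1 with LDHA is at 0.559, 0.685 and 0.695.

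Per cell, the 10 genes together had a median of 7800 CPM in DMSO, 8200 in RAC1i and 8600 in Combo after thinning. The cell at percentile 90 had 2.32, 2.04 and 2.14 times the sum of the cell at percentile 10. The mean score of the 10 genes had correlations between 0.012 and 0.032 with the G2 and M list and between 0.035 and 0.098 with the S phase list. The score weighs each gene alike, sparse genes included, and was not corrected for counting noise, which lowers such values. Single genes could differ more. Between cells with 0 and with 5 or more S phase UMIs, GPI went from 83.2 to 107 CPM in RAC1i. SLC2A1 went from 37.8 to 31.5 CPM in DMSO. Among 2137 genes with at least 50 CPM in each library, those whose UMIs went most closely with that score, ranked by the lowest of the 3 libraries, were ANXA2 (0.304), PRDX1 (0.301), LDHB (0.264), PPA1 (0.234) and ACTB (0.221). TPI1, SLC25A5, CFL1, PRDX6 and HSP90AA1 followed, between 0.216 and 0.196. LDHB and TPI1 are themselves glycolytic, PRDX1 and PRDX6 are peroxiredoxins, and the other genes are likewise abundant in most cells.

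The remaining steps of the pathway are covered by TPI1, the triose phosphate isomerase, and PGAM1, the phosphoglycerate mutase. TPI1 had 707 CPM in DMSO, 659 in RAC1i and 713 in Combo, and PGAM1 had 217, 256 and 268 CPM. Neither passed 1.5-fold. Of the 22 other glycolysis genes, 8 had at least 10 CPM, of which 3 were past 1.5-fold lower in RAC1i and 2 in Combo and none higher, with a median log2 ratio of -0.39 and -0.36. Over all genes 36.9% and 35.4% were past 1.5-fold lower, so these counts say nothing particular of the 8 genes. The lists that follow were chosen with earlier results of these data known, and are described by their counts beside the same background of all genes. A gene that reached 10 CPM in DMSO alone, such as PCK2 or IDH2, could not be counted as higher. Likewise, a gene that reached it only in treated libraries, such as ADM or SLC16A7, could not be counted as lower. Both limit what each count shows.

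Among 14 other glucose transporters only 3 had at least 10 CPM in either library of a comparison with DMSO, and as some of them reached it in DMSO alone, the number of them that were lower is not read. SLC2A12 had 32.4 CPM in DMSO, 5.97 in RAC1i and 5.597 in Combo, and SLC2A6 had 11.4, 2.93 and 3.27 CPM. SLC16A3, the exporter of lactate, was also lower, with 22.8, 3.35 and 3.23 CPM. SLC16A7, a related importer of lactate and pyruvate, had 6.43, 14.4 and 10.7 CPM. In the list of lactate and pyruvate handling, 2 of 14 genes were past 1.5-fold higher and 5 lower in RAC1i, against 22.7% and 36.9% of all genes, and 1 and 5 in Combo, against 21.3% and 35.4%.

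TXNIP, an arrestin that limits glucose uptake by removing transporters such as SLC2A1 from the membrane, was far higher after treatment. It had 46.8 CPM in DMSO, 547 in RAC1i and 736 in Combo, ratios of 11.7 and 15.7, and it was at least 8.25 times the DMSO level in every band of depth and of mitochondrial share. Its relative ARRDC4 had 1.10, 20.5 and 33.2 CPM. Of the 13 regulators of glycolysis with at least 10 CPM, 3 were past 1.5-fold higher and 3 lower in RAC1i (22.7% and 36.9% of all genes), and 2 and 5 in Combo (21.3% and 35.4%). MLXIP, a glucose-sensing factor known to induce TXNIP, had 53.9, 22.7 and 21.1 CPM, and EPAS1 (HIF2A) had 24.7, 11.5 and 10.4 CPM.

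Other genes are known targets of HIF outside glycolysis. ADM, a secreted peptide, had 3.58 CPM in DMSO, 156 in RAC1i and 114 in Combo, and KDM3A, a histone demethylase, had 12.7, 29.5 and 24.2 CPM. NDRG1 went the other way, with 46.0, 11.9 and 11.9 CPM, and so did EGLN3, a prolyl hydroxylase of HIF, with 13.1, 2.48 and 2.32 CPM. Of the 11 such genes with at least 10 CPM, 3 were past 1.5-fold higher and 5 lower in each comparison with DMSO. Over all genes these shares were 22.7% and 36.9% in RAC1i and 21.3% and 35.4% in Combo, so the counts tell little of the list.

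Other lists cover branches that leave glycolysis. All 5 genes of the serine branch were past 1.5-fold lower in RAC1i and in Combo, with a median log2 ratio of -1.97 and -1.79. PHGDH, the enzyme that starts serine synthesis from a glycolytic intermediate, had 325 CPM in DMSO, 38.9 in RAC1i and 50.5 in Combo, and PSAT1, the next enzyme, had 123, 15.3 and 16.5 CPM. In the pentose phosphate pathway 5 of 7 genes were past 1.5-fold lower in each comparison and none higher, where 36.9% and 35.4% of all genes were lower. PGLS, the lactonase of that pathway, had 156, 23.9 and 28.9 CPM. These ratios were not set against those of the 10 genes in a test, since there was 1 library per condition.

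Of the 6 genes of gluconeogenesis and glycogen use with at least 10 CPM, 4 were past 1.5-fold lower in each comparison, against 36.9% and 35.4% of all genes. PCK2, the mitochondrial enzyme that makes phosphoenolpyruvate, was one that passed the filter through DMSO alone, at 10.84, 0.6639 and 0.7002 CPM. Of 4 genes of the hexosamine pathway 1 was past 1.5-fold lower in each, PGM3, a mutase of the pathway, having 26.6, 13.4 and 16.9 CPM. The tricarboxylic acid cycle, which takes up the pyruvate of glycolysis in mitochondria, had 4 of 17 genes past 1.5-fold higher and 6 lower in RAC1i, near the shares of all genes (22.7% and 36.9%), and 3 and 4 in Combo (21.3% and 35.4% of all genes). DLST, a subunit of oxoglutarate dehydrogenase, had 19.1 CPM in DMSO, 55.0 in RAC1i and 55.5 in Combo, whereas IDH2, the mitochondrial isocitrate dehydrogenase that uses NADP, had 22.1, 2.63 and 2.89 CPM.

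**Figure D5:**
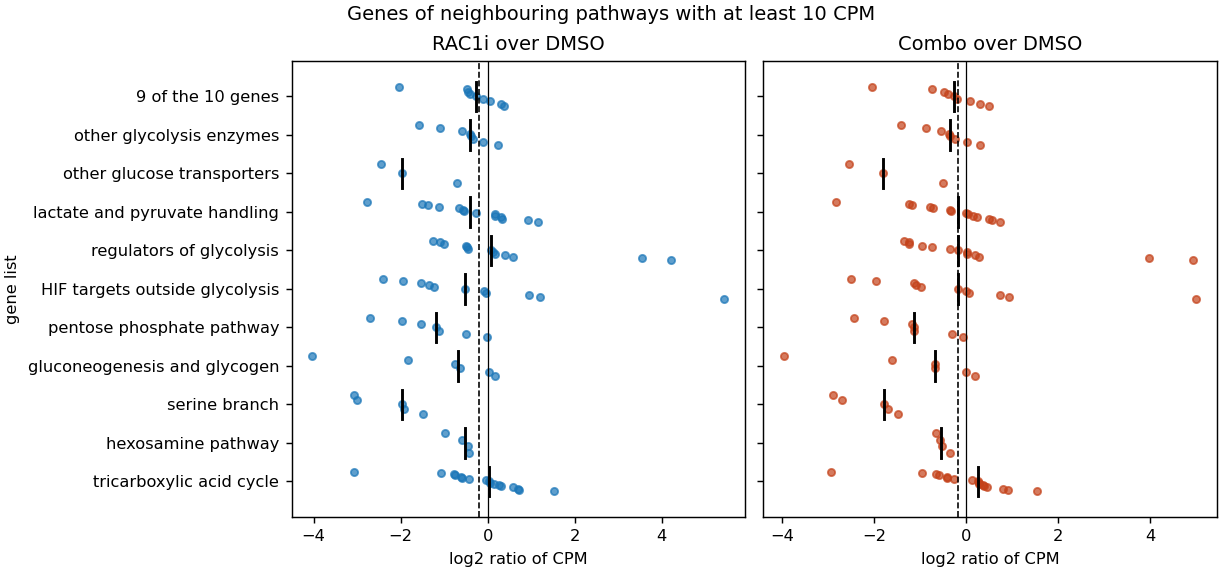
Log2 ratio of CPM to DMSO in RAC1i (left) and Combo (right) for each gene that reached 10 CPM in either library, by gene list, with the list's median as a black bar, 0 as a solid line and the median of all genes as a dashed line. HK2 is left out of the top row, and the serine branch and the pentose phosphate pathway have medians of -1.97 and -1.19 in RAC1i.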

How the data were processed

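Single cells of 3 OVCAR3 libraries were used, 1 per condition. The authors made the counts with Cell Ranger 4.0.0 on GRCh38 and deposited them as unnormalized whole UMI counts of each gene in each barcode. UMIs whose reads match 2 genes are not assigned, which lowers genes with overlapping or near-identical copies (ALDOA, GAPDH, PGK1 and ENO1 have such neighbours or pseudogenes).

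What follows was computed from those counts. The filters of the study's methods were applied to cells: more than 1000 genes, mitochondrial UMIs of 20% or less, and log genes over log UMIs above 0.8. No doublet caller was run. CPM carries exact Poisson intervals, ratios exact conditional intervals and shares Clopper-Pearson intervals, all at 95%. With 1 library per condition no test was made, and a gene was counted when past 1.5-fold. The members and lists were chosen with earlier results of these data known. Named from each list were the 2 largest rises and falls with at least 10 CPM, beside fixed members, their related genes and the 10 genes most like them. Not every gene that this rule names is reported here. Alternatives were other limits on cells, thinning, leaving out the 5% deepest cells, other totals, TMM factors (edgeR 4.0.16), DESeq2 1.42.0 size factors and means over cells. Depth and mitochondrial bands were added after seeing the data. Positions are from GENCODE 44. Calculations used Python 3.11.15, numpy 2.4.6 and scipy 1.17.1 and were tested on simulated data.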

Additional observations from a re-analysis of the deposited data

How the results depend on the processing

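The median log2 ratio of the 10 genes stayed below 0 in RAC1i over DMSO and in Combo over DMSO under all 10 alternatives. The median of all genes was below 0 in each of these settings too. In RAC1i the difference of the 10 genes from it was 0.018 at first, -0.040 in thinned cells and -0.084 as a mean over cells, so its sign was not stable. In Combo the 10 genes lay below it in each setting. For RAC1i over DMSO, where the median of the 10 genes was -0.18, it was -0.19 with a mitochondrial limit of 10%, -0.15 with every deposited barcode, -0.26 in cells thinned to 5000 UMIs, -0.20 without the 5% of cells with the most UMIs, -0.25 with a total without mitochondrial genes, -0.10 with TMM factors, -0.067 with DESeq2 size factors, -0.29 as a mean over cells of CPM, and -0.15 in cells with at least 10000 UMIs. For Combo over DMSO, where it was -0.33, it was -0.31 with every barcode, -0.28 without the 5% deepest cells, -0.40 without mitochondrial genes, -0.24 with TMM factors, -0.21 with DESeq2 size factors, -0.41 as a mean over cells, -0.29 in cells with at least 10000 UMIs and -0.34 in cells with at least 1% mitochondrial UMIs. In Combo over RAC1i it ranged from -0.028 to 0.0086. The scalings moved the median of all genes as much, to -0.086 in RAC1i and -0.063 in Combo with DESeq2 size factors. The count past 1.5-fold lower in RAC1i was 2 as a mean over cells (PFKP and PGK1), and in Combo it was 1 (PFKP) after thinning, while as a mean over cells it was 2 with PGK1 in place of SLC2A1. The count past 1.5-fold higher in Combo was 1 (GAPDH) with TMM factors and with DESeq2 size factors. Of 300 log2 ratios of single genes, 146 stayed within their counting interval and 20 changed sign, none of them past 1.5-fold at first. No paired analysis was possible because each condition had 1 library. The 2 alternatives on cells with at least 10000 UMIs or 1% mitochondrial UMIs were chosen after seeing the data.

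With 1 library per condition, counting intervals say nothing of the spread between cultures, and differences between conditions and between libraries cannot be told apart. HK2 averaged at most 0.238 UMIs per cell and PFKP at most 0.158 in the treated libraries, too few to describe single cells.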
